A study of Saccharomyces cerevisiae with 32 samples.

Results

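The genes described here encode 31 proteins of the small subunit of the yeast mitochondrial ribosome. They were taken by gene symbol in the array annotation, from a list drawn up with earlier results of these data known, and all 31 were found among the 5377 Saccharomyces cerevisiae genes that passed a filter on low signal. The samples came from 1 continuous culture of CEN.PK113-7D, a haploid laboratory strain labelled MATa, which oscillated with a dissolved oxygen period of about 2 h. The culture was held at 30 °C and pH 4.0 on glucose medium, with the dilution rate set between 0.06 and 0.086 per h to hold the period. A pellet was taken every 4 min for 32 samples, and each sample's total RNA was measured on 1 Affymetrix Yeast Genome 2.0 array. All samples share 1 strain and 1 treatment, so the comparison is along the phase angle that the labels give to each sample, where 360° is a full turn. What event lies at 0° is not stated in the labels, and there was no second culture, so the tests below measure the spread around a curve within 1 culture.

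The mitochondrial ribosome translates the few proteins that the mitochondrial genome encodes, most of them core subunits of the respiratory chain and the ATP synthase. Nearly all of its own proteins are encoded in the nucleus, made in the cytosol and imported, and the small subunit is the part that binds the mRNA and reads its codons. Some of its proteins have relatives in all ribosomes, some have relatives in bacteria, and others are found only in mitochondrial ribosomes. VAR1, the subunit protein that yeast encodes in the mitochondrion itself, is not among the genes described. In bulk RNA, a change in RNA per cell cannot be told apart from a change in the share of cells that hold the RNA.

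The 31 small subunit mRNAs rose together in a short stretch of the oscillation and then declined slowly. Their mean log2 level, after quantile normalisation of the arrays, was lowest at 34.3° (10.80) and highest at 134° (11.97), a 2.26-fold difference reached in 32 min. From the highest sample to the last sample of the series, 80 min later, the mean went down to 10.86. Most of the rise fell between 71.7° and 122°, where 30, 30, 31 and 30 of the 31 mRNAs went up in the 4 successive steps of 4 min. In those same steps 51.2% to 54.0% of all genes tested went up. After 134° the direction turned, and 24, 26 and 29 of the 31 mRNAs went down in the next 3 steps. Of all genes tested, 50.5%, 50.3% and 46.7% went up in these 3 steps.

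**Figure D1:**
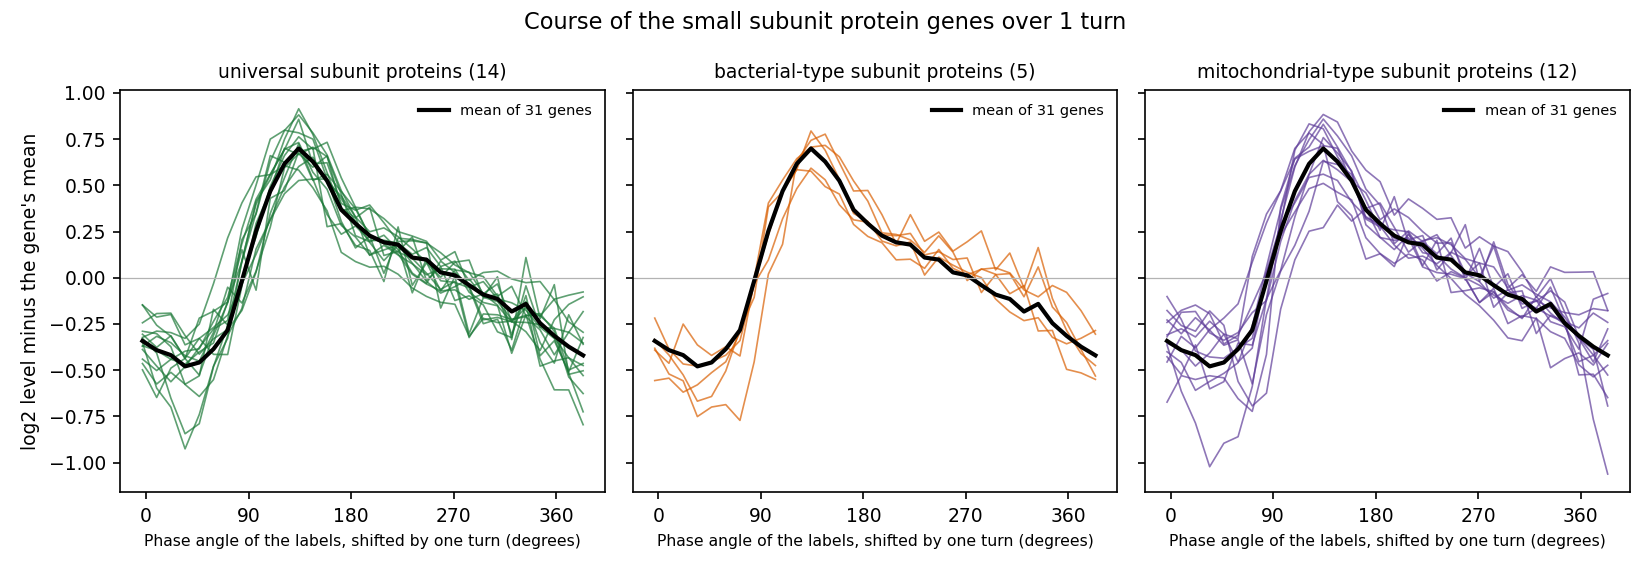
Centred log2 level of the small subunit mRNAs (vertical axis) against the phase angle of the sample (horizontal axis, degrees), with thin lines for the members, in 3 panels by class of protein, and a thick line for the mean of all 31. The mean is lowest at 34.3° and highest at 134°, and the members spread most at 71.7° and least at 221°.

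The highest sample was the one at 134° for 19 members, the one at 146° for 6 and the one at 122° for 5. RSM22, whose protein carries a methyltransferase-like domain, was the exception, with its highest sample at 184°. These are samples after normalisation. In the deposited signal the highest sample was at 134° for 16 members, at 146° for 12, at 109° for 2 and at 334° for RSM22. After normalisation the highest level exceeded the lowest by 1.86-fold (RSM23) to 3.85-fold (PET123), with a median of 2.35-fold. These folds rest on single samples and were not set against those of all genes tested.

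A cosine curve was fitted to each gene and tested with limma's moderated F test, with Benjamini-Hochberg adjustment over all genes tested. All 31 members varied with phase at an adjusted p under 0.05, with values from 2.63e-13 to 1.10e-05, but so did 91.3% of all genes tested, so this count does not set them apart. Their fitted ranges, peak to trough, had a median of 0.85 on the log2 scale (0.57 to 1.31), against 0.63 for all genes tested. A fitted range of at least 2-fold was reached by 9 of 31 members, and by 29.6% of all genes tested. The timing was narrow: all 31 fitted peaks lay within 45° of 180°, a window that held 37.5% of all genes tested. The window, the members and the lists used below were chosen with earlier results of these data known. Counts in the window therefore describe the timing and do not test it. The median peak was 170°, the members ranged from 137° to 213°, and the quartiles were 164° and 181°. For the mean of the 31 the fitted range was 0.84 ± 0.09 and the peak 173° ± 6.6 (jackknife SE over 32 samples).

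Samples taken 4 min apart are not independent, and the residuals around the single cosine had a lag-1 autocorrelation of 0.659. The counts without whitening do not allow for this, and those after whitening with the residual value allow for it only in part. The SEs given with ±, jackknife or from the fit, treat the samples as independent and do not allow for it either. After whitening with the value of 0.659, 30 of 31 members still passed (67.6% of all genes tested), with MRP2 lost at a limma adjusted p of 0.0662. With the autocorrelation corrected for the fit, a choice made after seeing the data, a single cosine was called for 3 members, MRP17, RSM26 and RSM10 (7.53% of all genes tested). Under the same correction the cosine and its second harmonic tested together were called for 30 members (60.1% of all genes tested), again with MRP2 as the exception (limma adjusted p = 0.182).

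The shape of the profile was a steep rise and a slow fall, not a single wave. The second harmonic, a wave with 2 cycles per turn, passed limma's moderated F test in 31 of 31 members (83.9% of all genes tested), with a largest adjusted p of 0.000358. It passed in 31 after whitening (72.8% of all genes tested) and in 22 with the corrected autocorrelation (48.1% of all genes tested), but in 14 when arrays were scaled to their poly-A controls (76.4% of all genes tested). Adding it raised the median share of variance fitted from 0.751 to 0.915, and from 0.605 to 0.844 for all genes tested. Such a share cannot fall when terms are added, so the increase alone does not set the members apart. With both harmonics the maximum of the members' mean lay at 145° ± 2.8 (jackknife SE), close to the highest samples, and its minimum at 26.4°. The 31 single maxima lay between 123° and 173°, with a median of 144°. The phase at which each mRNA had risen midway from its lowest to its highest level lay between 66.2° (RSM10) and 102° (MRP4), a span of 11.4 min.

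**Figure D2:**
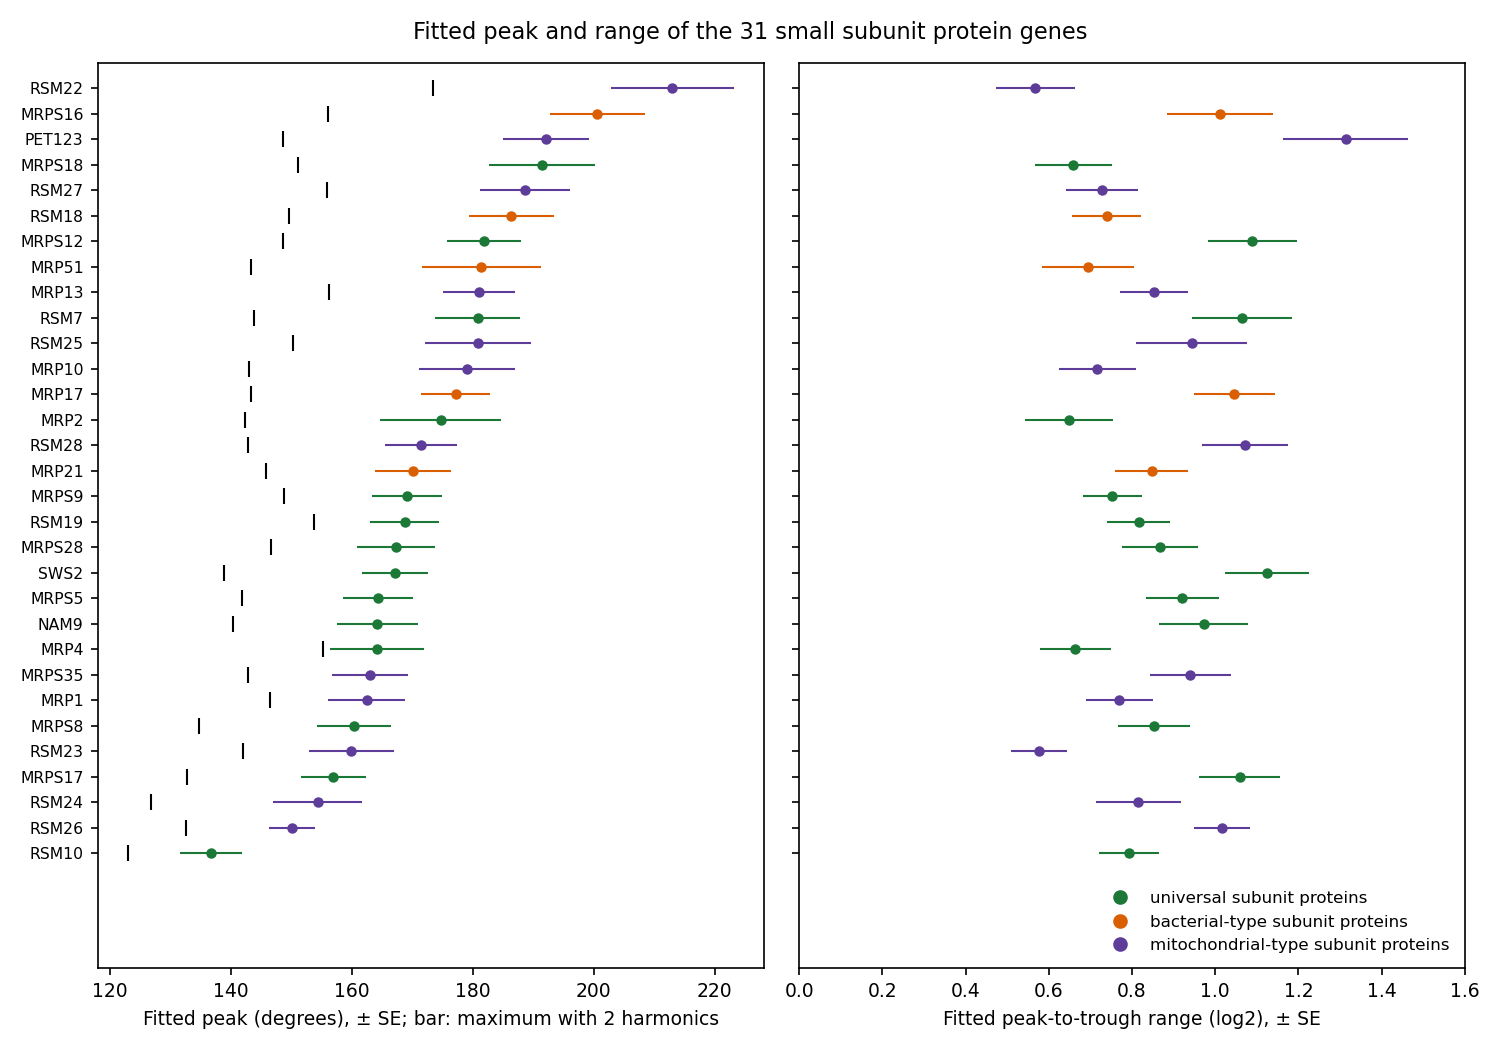
Left, fitted single-cosine peak in degrees for each small subunit gene (points, ± SE) with the maximum of the fit with 2 harmonics (black bars). Right, fitted peak-to-trough range on the log2 scale (± SE). Peaks run from RSM10 at 137° to RSM22 at 213°, and ranges from 0.57 (RSM22) to 1.31 (PET123).

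The proteins with relatives in all ribosomes, 14 of the 31, include those that build the decoding and mRNA-binding regions. Their mean had a fitted range of 0.86 and a peak at 168°. SWS2, the S13 relative of the subunit head, had a range of 1.12 ± 0.10, and MRPS12, the S12 relative at the decoding centre, one of 1.09 ± 0.11. Both are among the 3 members with the largest range.

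SWS2 (YNL081C) had log2 levels from 10.07 at 23.8° through a median of 10.84 to 11.74 at 134°, and MRPS12 (YNR036C) from 11.90 at 34.3° through 12.73 to 13.50 at 134°. Both were low in samples around the start of the turn and high in the same sample. RSM7, the S7 relative, had a highest level 3.44-fold above its lowest. NAM9, the S4 relative first known as a suppressor of mitochondrial nonsense mutations, had a range of 0.97 and peaked at 164°.

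MRP2 (YPR166C), the S14 relative, had one of the 3 smallest ranges, 0.65 ± 0.11, with log2 levels from 11.44 at 46.8° through a median of 11.96 to 12.67 at 146°. Its highest level exceeded its lowest 2.34-fold. MRP4, MRPS5, MRPS8, MRPS9, MRPS17, MRPS18, MRPS28 and RSM19, the other members of this class apart from RSM10, had ranges from 0.66 (MRPS18) to 1.06 (MRPS17) and peaks from 157° (MRPS17) to 192° (MRPS18).

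RSM10 (YDR041W), the S10 relative, was the earliest of the 31, and it was singled out after its values were seen. Its log2 level was lowest at 346° (11.56), had a median of 11.85 and was highest at 122° (12.56). The deposited signal of RSM10 was lowest at 46.8° and highest at 134°. The fitted peak of RSM10 was 137° ± 5.1, and its normalised level was midway up at 66.2°, before the other members.

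The 5 members with bacterial relatives, MRP17, MRP21, MRP51, MRPS16 and RSM18, had a mean with a range of 0.85 and a peak at 183°. MRP17, the S6 relative, had a range of 1.05 and MRP51 one of 0.69. MRPS16 (YPL013C), the S16 relative, had log2 levels from 11.22 at 71.7° through a median of 12.13 to 12.77 at 146°. Its lowest sample after normalisation thus came when the members' mean had already left its own minimum, but its deposited signal was lowest at 46.8°. Its fitted peak was late, at 201° ± 7.8.

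The 12 members found in mitochondrial ribosomes and not in bacterial ones had a mean with a range of 0.82 and a peak at 174°. This class held the largest and the smallest ranges of all 31. PET123 (YOR158W), a protein required for mitochondrial translation, had a range of 1.31 ± 0.15. Its log2 level was 10.29 at 23.8°, 11.51 at the median and 12.24 at 134°, and its deposited signal went from 948.8 to 5385 in the same samples. MRP1, whose product interacts genetically with that of PET123, had a range of 0.77 and peaked at 162°, against 192° for PET123.

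RSM22 (YKL155C) had the smallest range, 0.57 ± 0.09, and the latest peak, 213° ± 10.2. Its log2 level was 9.26 at 71.7°, 10.00 at the median and 10.36 at 184°, so it was lowest in a sample where most other members were already rising. The deposited signal of RSM22 was lowest at 59.2° and highest at 334°. RSM23 (YGL129C), the relative of human DAP3, had a range of 0.58 ± 0.07, with levels from 10.71 at 358° through 11.03 to 11.60 at 134°. It kept the timing of the group, with a peak at 160°, and differed in size. RSM24, RSM25, RSM26, RSM27, RSM28, MRP10, MRP13 and MRPS35 lay between, with ranges from 0.72 (MRP10) to 1.07 (RSM28).

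The members were then set against each other, by testing each gene's level minus the mean of the other members on the same array, in which array-wide brightness cancels. At limma's adjusted p under 0.05, 26 of 31 members followed a course different from the mean of the others, against 98.5% of all genes tested. The 5 that did not pass were MRP21, RSM25, MRPS28, MRP2 and MRPS5, with adjusted p from 0.0660 to 0.774. That does not show that they follow the same course. After whitening 17 members passed (92.6% of all genes tested), and with the corrected autocorrelation PET123 and RSM10 passed (64.8% of all genes tested), with limma adjusted p of 0.000997 and 0.0108. RSM22 was at 0.0565 in that last fit.

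The departures had their own shapes. RSM22 was up to 0.42 above the others at 11.1° and 0.63 below them at 84.2°, for a fitted range of the difference of 0.78. PET123 lay 0.66 below at 23.8° and up to 0.24 above at 209°, with a range of the difference of 0.73. MRPS16 lay 0.50 below at 71.7° and 0.31 above at 334°, with a range of the difference of 0.63.

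RSM10 ran the other way on the rise, with 0.52 above the others at 71.7° and 0.29 below them at 284°. The single-cosine peaks of RSM10 and RSM22 were 76.2° apart, or 24.5 min. With 2 harmonics their maxima lay closer, at 123° and 173°. The peaks fitted to odd and to even time points alone differed by a median of 3.52° per member, and by at most 10.3°, for RSM22. Odd and even points are interleaved neighbours of 1 culture, so these differences do not measure the error between replicates. The SD of the members' centred levels was largest at 71.7°, on the rise (0.23), and smallest at 221°, on the slow fall (0.08).

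**Figure D3:**
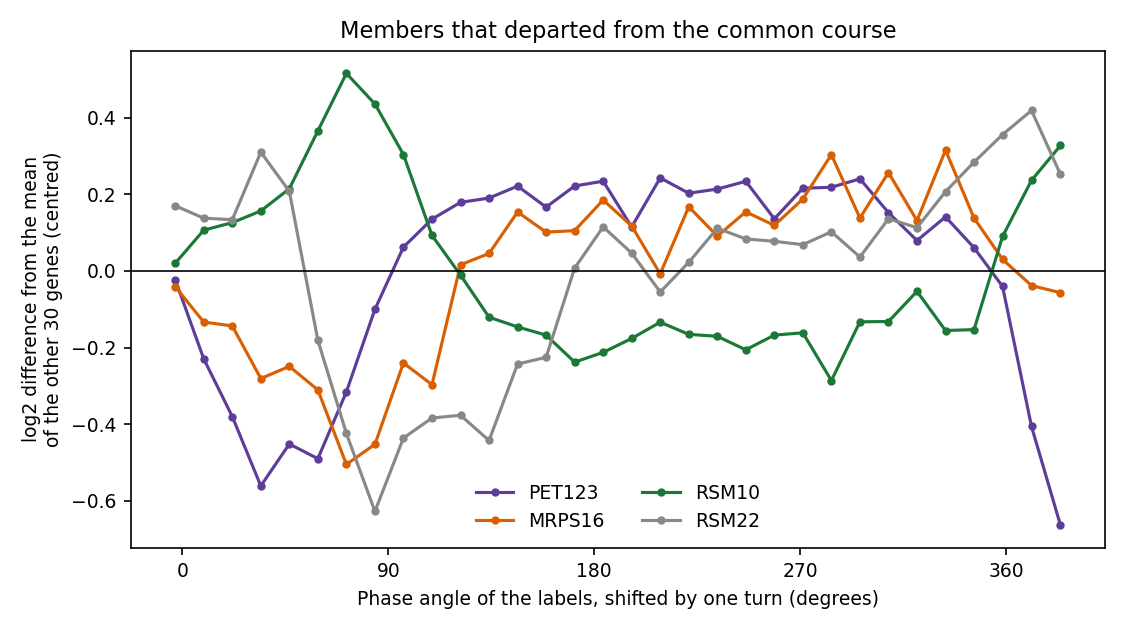
Difference in centred log2 level between each of RSM22, PET123, MRPS16 and RSM10 and the mean of the other members, by phase angle in degrees. RSM10 is 0.52 above the others at 71.7°, where MRPS16 is 0.50 below them, and PET123 is 0.66 below at 23.8°.

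The large subunit, whose proteins surround the peptidyl transferase centre, lay close to the small subunit in its course. All 44 genes on the list used for it varied (91.3% of all genes tested), and all 44 peaked within 45° of 180° (37.5% of all genes tested). With the corrected autocorrelation the single cosine was called for 2 of them (7.53% of all genes tested). The 2 harmonics together were called for 44 (60.1% of all genes tested). The mean of the 44 had a range of 0.84 ± 0.09 and a peak at 176° ± 6.7 (jackknife SE). In the 32 samples the centred means of the subunits differed by between -0.06 and 0.04 on the log2 scale. Gene by gene, 38 of the 44 differed from the mean of the small subunit members at limma's adjusted p under 0.05 (98.5% of all genes tested). After whitening 18 did (92.6%), and with the corrected autocorrelation 1 did (64.8%). Of the 5346 tested genes outside the small subunit, the 5 whose centred profile lay nearest to the members' mean were MRPL27, ACP1, TUF1, MEF1 and MHR1, with root mean square differences over 32 samples from 0.0561 to 0.0762. MRPL27 and MHR1 are large subunit genes, TUF1 and MEF1 encode the mitochondrial elongation factors Tu and G, and ACP1 encodes the mitochondrial acyl carrier protein. Of the nearest 40 genes, 21 were on the large subunit list. The median difference was 0.126 for the members themselves, each against the others, and 0.408 for all genes tested. For the large subunit genes it was 0.117, so closeness to this course is not particular to the small subunit.

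Other genes of mitochondrial translation, from lists written with earlier results known, mostly peaked in the same window, with different ranges. The counts below stand against 91.3% of all genes tested that varied and 37.5% that varied and peaked in the window, and with the corrected autocorrelation the single cosine was called for 0 synthetase, 0 factor and 1 activator genes. All 14 mitochondrial tRNA synthetase genes varied and peaked there, and their mean had a range of 1.05, with MSF1 (phenylalanine, 1.65), MST1 (threonine, 1.46) and AIM10 (proline, 1.29) in front. All 15 translation and assembly factor genes varied and 12 peaked in the window. The largest ranges were those of RRF1, the ribosome recycling factor (1.33), AIM23, the initiation factor (1.29), and MRF1, the release factor (1.18). All 18 genes on the list of mitochondrial mRNA activators varied and 14 peaked in the window. CBP6 (1.23) and CBP3 (1.02), which act on cytochrome b mRNA, and MSS51 (1.02), which acts on COX1 mRNA, led this list. RPO41, the mitochondrial RNA polymerase, had a range of 0.43, and MTF1, its specificity factor, one of 0.27.

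The small subunit of the cytosolic ribosome ran on another course. Of 52 genes measured, 51 varied (91.3% of all genes tested) and 0 peaked within 45° of 180° (37.5% of all genes tested). With the corrected autocorrelation the single cosine was called for 0 of the 52 (7.53% of all genes tested). The 2 harmonics together were called for 36 (60.1% of all genes tested). The mean of the 52 had a range of 0.56 and was highest at 59.2° and lowest at 146°. Its single-cosine peak was at 10.2°, 162.5° away from that of the mitochondrial small subunit. With 2 harmonics its maximum was at 37.8°, 107.5° away. RPS26B (range 1.81, peak 10.8°) and RPS9A (1.38, peak 335°) had the largest ranges. Many of these genes have a near-identical copy, and signal cannot be assigned with certainty between copies.

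**Figure D4:**
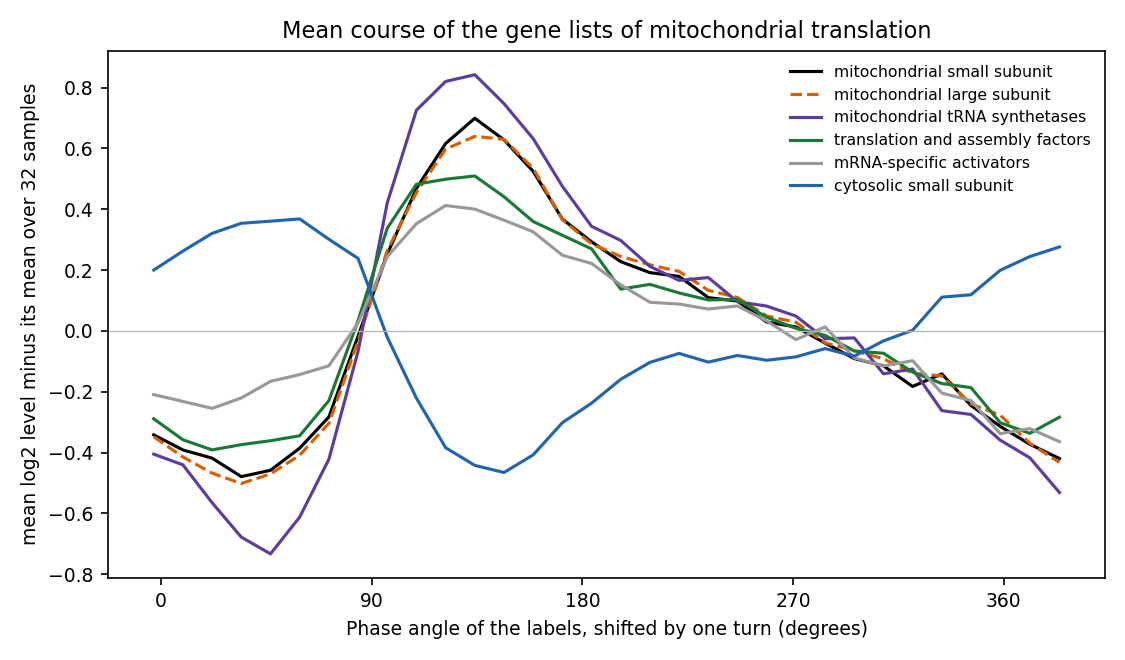
Mean centred log2 level of the mitochondrial small subunit, of the large subunit, of other mitochondrial translation genes and of the cytosolic small subunit, by phase angle in degrees. The mitochondrial lists are highest at 122° or 134°, and the cytosolic small subunit is highest at 59.2° and lowest at 146°.

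Over the 32 arrays the median deposited signal was 1436 to 2340 for probe sets of S. cerevisiae genes and 5.4 to 9.8 for those of Schizosaccharomyces pombe, which share the array and serve as background. All 31 members were well above that background, with a lowest mean log2 level of 9.95. The signal of the poly-A control probe sets differed between arrays by 1.62 on the log2 scale and was lowest at 71.7° (7.37) and highest at 334° (8.98). It also went up over the stretch in which the members rose, to 8.30 at 134°. Scaled to those controls, 30 members varied with phase (RSM22 did not pass), the mean of the 31 peaked at 130.8°, and the members' peaks lay between 108° and 162°. The highest sample stayed at 134° and the low point before the rise at 34.3°, but the rise had another shape. The mean was already at 0.60 relative to its own average at 84.2°. It then fell from 11.88 at 84.2° to 11.59 at 96.6° before it rose again. Under that scaling the mean of the last 3 samples lay at -0.64 and that of the first 3, at matching phases, at 0.06 relative to the profile's mean. In the deposited values without scaling they were -0.64 and -0.18, and after quantile normalisation -0.37 and -0.38. The part of the controls in the timing was not tested further. As for the MATa label, the 6 a-specific genes had mean log2 levels from 10.14 (ASG7) to 13.35 (MFA2), and the 4 alpha-specific genes from 6.28 to 10.02, also above the background level of 4.45. Levels of different probe sets cannot be set against each other, so these values do not settle the mating type.

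**Figure D5:**
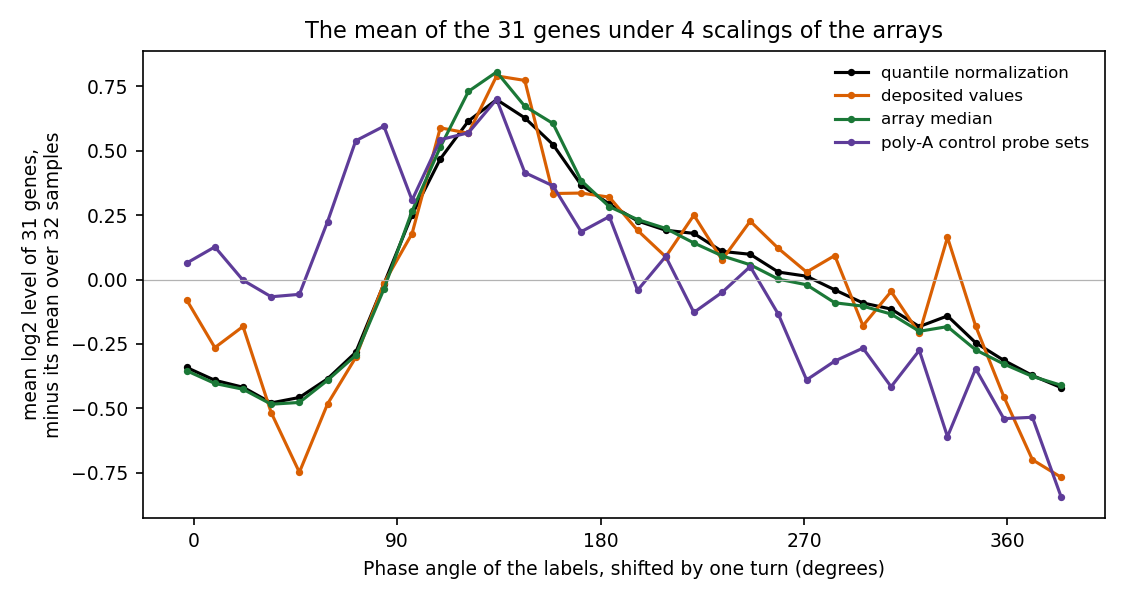
Centred mean log2 level of the 31 small subunit genes by phase angle in degrees under 4 scalings of the arrays. The highest sample is at 134° under each scaling, and the first and last samples, at matching phases, differ most with scaling to the poly-A controls.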

How the data were processed

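In all, 32 samples of total RNA from 1 culture were measured on 1 array each, with 5 µg of labelled cRNA loaded on an array, per the labels. The deposited files hold linear intensities of probe sets. The submitters' processing notes name GCOS, with version and scaling not given in the sources used here. Genes were named through the platform annotation and the RefSeq gene table.

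Of 10928 probe sets, 5498 named 1 S. cerevisiae gene each. The deposited intensities plus 1.9, their 10th percentile, were put on the log2 scale and quantile normalised over those probe sets, so levels are relative to the other genes. For each of 5449 genes the brightest probe set was used, and the 5377 with a mean level over 4.45, which 95% of S. pombe probe sets do not reach, were tested. Each member had 1 probe set.

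Calculations used R 4.3.3 and limma 3.58.1, with moderated F tests of 1 or 2 harmonics of phase over all 5377 genes and Benjamini-Hochberg adjusted p under 0.05. The tests of the first and second harmonic were tried on simulated data, where autocorrelated noise gave too many calls unless the corrected autocorrelation was used. The difference test was simulated as well, but its outcome is not reported here. The joint test was not simulated. Alternative scalings, pseudocounts, filters, covariates, sample subsets and corrections for autocorrelation were run. Members given by sample are the 3 with the largest range, the 3 with the smallest, and the 3 that differ most from the others. Genes outside are the 5 nearest in profile and up to 3 per list with the largest range, or 2 for the cytosolic subunit. The members, the lists and the window of 45° around 180° were chosen with earlier results of these data known. With 1 group there are no replicates of a time point, and the number of arrays limits the precision.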

Additional observations from a re-analysis of the deposited data

How the results depend on the processing

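Scaling to the poly-A controls moved the timing of the small subunit mean, with a single-cosine peak at 130.8° and a 2-harmonic maximum at 115.1°, and left 14 members with a second harmonic. It also ended the call for RSM22 (fitted range 0.16, limma adjusted p = 0.427). The cause was not tested. Without the 5 samples of lowest poly-A signal the peak was 158.8° and the 2-harmonic maximum 138.4°, and with linear time as a term the peak was 165.1°. The number of members differing from the others was 17 after whitening, 17 on odd time points and 17 on even time points, where fewer samples were used. With the corrected autocorrelation, an alternative added after seeing the data, it was 2, and 3 members varied by the single cosine. Leaving out each of the 32 samples in turn, also added afterwards, gave 31 to 31 members varying, 31 to 31 with a second harmonic and 23 to 27 differing from the others, a range of the mean of 0.799 to 0.869, a peak of 170.4° to 175.3° and a 2-harmonic maximum of 144.1° to 146.5°. A tally of 465 values of single members covered the other scalings, pseudocounts, filters, covariates, whitening with the residual value and sample subsets. Of these, 463 kept their side of the threshold, and 0 had their peak moved to the opposite side of the turn. The others were RSM22 with poly-A scaling and MRP2 after whitening. The corrected autocorrelation, under which 3 members varied by the single cosine, is not in this tally. No paired analysis was possible because there is 1 group and no replicate number is shared between groups.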

Other observations

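The series covers slightly more than a turn, and its first 3 and last 3 samples lie at phases within 1.93° of each other, which gives 3 matched pairs. After quantile normalisation the members' last-minus-first difference in log2 level over those pairs had a median of 0.01. Its median size was 0.10, against 0.14 for all genes tested. RSM25 differed most upward, from 9.81 to 10.22, and MRP10 most downward, from 11.57 to 11.35. In all 3 pairs 13 of 31 members were higher and 9 were lower, against 1853 and 1623 of the 5377 genes tested. No test was made, since the pairs are neighbouring samples of 1 culture.

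By locus order in the gene table, 19 of the 31 genes have a divergent neighbour upstream and 12 a tandem one. Of the 17 divergent neighbours tested, 16 varied (91.3% of all genes tested) and 8 (47.1%) peaked within 45° of 180°, a window that held 37.5% of all genes tested. RRP12, a ribosome biogenesis gene divergent from MRPS16, had a range of 3.12 and peaked at 0.1°, against 201° for MRPS16. AIM25, divergent from RSM26, had a range of 0.80 and peaked at 186°. RSM19 lies upstream of MRPS12 in tandem, and both are members. These neighbours were singled out after their values were seen.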
